A study of Danio rerio with 6 samples.

Results

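Assembly factors of the large (60S) ribosomal subunit are proteins that fold, cut, modify and escort the precursor of the subunit and are absent from the finished ribosome. A list of 42 zebrafish symbols defined them here, all 42 matched 1 gene identifier each, and they make up 42 of the 32520 gene identifiers in the count table. By the step at which their product is known to act, 27 were placed in the early nucleolar step, 13 in the nuclear step, 1 in export and 1 in the cytoplasm. RNA sequencing of polyA RNA was done on whole embryos of zebrafish, 5 days after fertilization, with 3 sas10 mutant and 3 wild type libraries. The labels give neither the allele nor the clutch, nor how many embryos went into a library, so p-values measure the spread between these libraries.

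As background, both ribosomal subunits arise in the nucleolus from 1 long precursor RNA. After the precursor is split, the large subunit precursor keeps the spacer ITS2 ahead of the 28S sequence. Helicases, GTPases and scaffold proteins join and leave in sequence while ITS2 is removed, the 5S particle is set in place and AAA ATPases pull factors off. The adaptor Nmd3 then carries the particle out of the nucleus with the exportin Crm1, and cytoplasmic factors release the last escorts. Much of this order was worked out in budding yeast. Sas10, encoded by utp3 in zebrafish, belongs to the particle that makes the small subunit.

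The libraries held 17599625 to 19718753 counts in genes. Transcripts of utp3 (chromosome 11, 26370381 to 26375575, GRCz11), the targeted gene, averaged 10.8 ± 0.42 CPM (counts per 1000000 counts, on scaled library sizes) in sas10 mutants and 32.3 ± 4.43 CPM in wild type (SD, n = 3 each), with a log2 fold change of -1.58 ± 0.13 (SE, adjusted p = 1.53e-06 by the edgeR quasi-likelihood test with Benjamini-Hochberg adjustment). The genotypes lay apart on the first principal component (85.8% of the variance), and on the second the wild type library headed wt11 lay away from the rest, at a score of 42.3. Without wt11, 38 of the 42 factors were again called higher in mutants and 3 lower. Over all genes, 7129 were then called higher and 7138 lower, against 6614 and 6894 with every library. The median log2 fold change of the factors was 1.19 without wt11 and 1.01 without wt13. Fold changes below are mutant over wild type, and a gene is called changed at an adjusted p under 0.05 over the 21708 genes tested.

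Messages of most 60S assembly factors were more abundant in sas10 mutants. Of the 42 genes, all of which passed the expression filter, 38 rose, 3 fell and 1, mdn1, was not called. Among all genes tested 30.5% were called higher and 31.8% lower, together 62.2%, so a call alone is common in this comparison. The share of the factors called higher was 90.5%. The median log2 fold change was 1.11 over the 42 factors and -0.04 over all genes. The 38 that rose did so by 1.32-fold to 3.40-fold. At least 2-fold increases were seen for 27 factors, against 13.2% of all genes. All mutant libraries lay above all wild type libraries for 38 factors and below for 3, where 33.5% and 34.1% of all genes separated in those directions. Embryos were sequenced whole, so a changed share of cells of a type and a changed RNA level per cell cannot be told apart, for rises or falls.

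**Figure D1:**
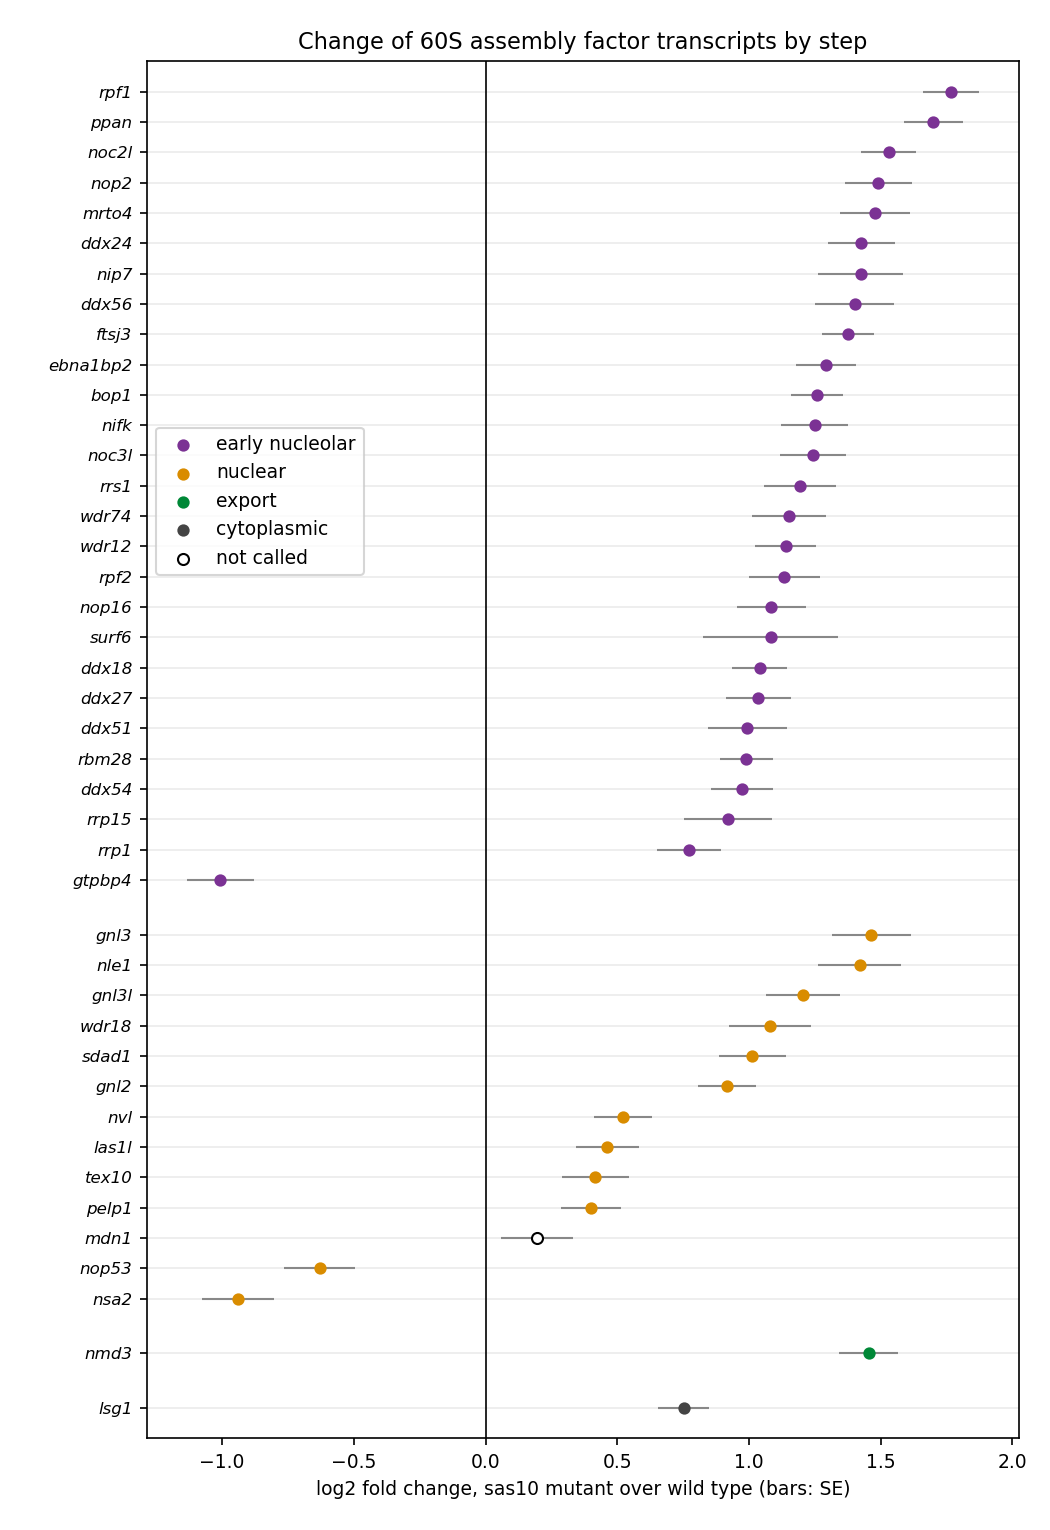
Log2 fold change (sas10 mutant over wild type, edgeR) of each of the 42 assembly factors, grouped by step, with bars of 1 SE. Called factors (filled) lie between -1.01 (gtpbp4) and 1.77 (rpf1), and the early nucleolar factors other than gtpbp4 are all to the right of 0.

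The early nucleolar factors rose nearly as a block: 26 of 27 were higher in mutants, 21 of them by at least 2-fold, with a median log2 fold change of 1.20. Of all genes tested, 30.5% were called higher and 13.2% were higher by at least 2-fold. The largest increase was that of rpf1 (chromosome 11, 16094661 to 16115804), which encodes a Brix-domain protein of the early particle. Its level was 75.3, 67.5 and 69.2 CPM in sas10 mutants, against 21.8, 20.03 and 20.4 CPM in wild type (log2 fold change 1.77 ± 0.11, edgeR adjusted p = 8.94e-08). The lowest mutant library was more than 3 times the highest wild type library. Another Brix-domain gene, ppan (chromosome 3, 54553931 to 54567961), had 74.0, 72.1 and 69.5 CPM in sas10 mutants, against 21.5, 24.6 and 20.1 CPM in wild type (log2 fold change 1.70 ± 0.11, edgeR adjusted p = 1.9e-07). The fold changes of these 2 genes were the largest among the 42 factors, and Brix-domain genes as a family were not compared.

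Noc proteins act in pairs that accompany the precursor through the nucleolus. The message of noc2l (chromosome 23, 23126130 to 23179417) stood at 159.2, 148.9 and 159.7 CPM in sas10 mutants, against 57.8, 53.3 and 50.8 CPM in wild type (log2 fold change 1.53 ± 0.10, edgeR adjusted p = 2.5e-07). Its partner noc3l rose by a log2 fold change of 1.24. Both genes were higher in every mutant library than in any wild type library, as were 33.5% of all genes tested.

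The rRNA methyltransferase genes nop2, whose product methylates a cytosine of 28S rRNA, and ftsj3, whose yeast counterpart Spb1 methylates ribose, both rose. For nop2 (chromosome 16, 17234540 to 17251898) the level was 115.8, 113.9 and 103.7 CPM in sas10 mutants, against 34.0, 46.7 and 37.9 CPM in wild type (log2 fold change 1.49 ± 0.13, edgeR adjusted p = 1.68e-06). For ftsj3 the log2 fold change was 1.38.

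All 6 DEAD-box helicase genes, ddx18, ddx24, ddx27, ddx51, ddx54 and ddx56, rose, as did 30.5% of all genes tested. Their log2 fold changes ran from 0.97 (ddx54) to 1.43 (ddx24). DEAD-box enzymes use ATP to remodel RNA, including the base pairing of snoRNAs with the precursor. The members of the Pes1-Bop1-Wdr12 (PeBoW) complex, which is needed for ITS2 processing, rose to similar degrees. Here bop1 had 85.3, 86.7 and 83.1 CPM in sas10 mutants, against 37.7, 34.7 and 34.2 CPM in wild type, a log2 fold change of 1.26, and wdr12 had a log2 fold change of 1.14. The genes rpf2 and rrs1, whose products bring the 5S particle to the subunit, rose by log2 fold changes of 1.13 and 1.20. The smallest increase of an early factor was that of rrp1, with a log2 fold change of 0.77.

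Other early factors lay in the same band. The highest of them was mrto4, related to the stalk protein P0 whose place its product holds, with a log2 fold change of 1.48, and next came nip7 at 1.43. For mrto4, 62.7% of the exon bases also belong to akr7l on the opposite strand, which fell (log2 fold change -1.06), and the counting command has no strand option. The nucleolar genes ebna1bp2, nifk, wdr74, nop16, rbm28 and rrp15 rose by log2 fold changes between 0.92 and 1.29. The lowest counts were those of surf6, which rose by a log2 fold change of 1.08 ± 0.26. Its exon overlaps with kyat1 on the same strand and surf1 on the opposite strand sum to 85.1% of its exon bases. A base shared with both genes would count more than once in that sum.

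**Figure D2:**
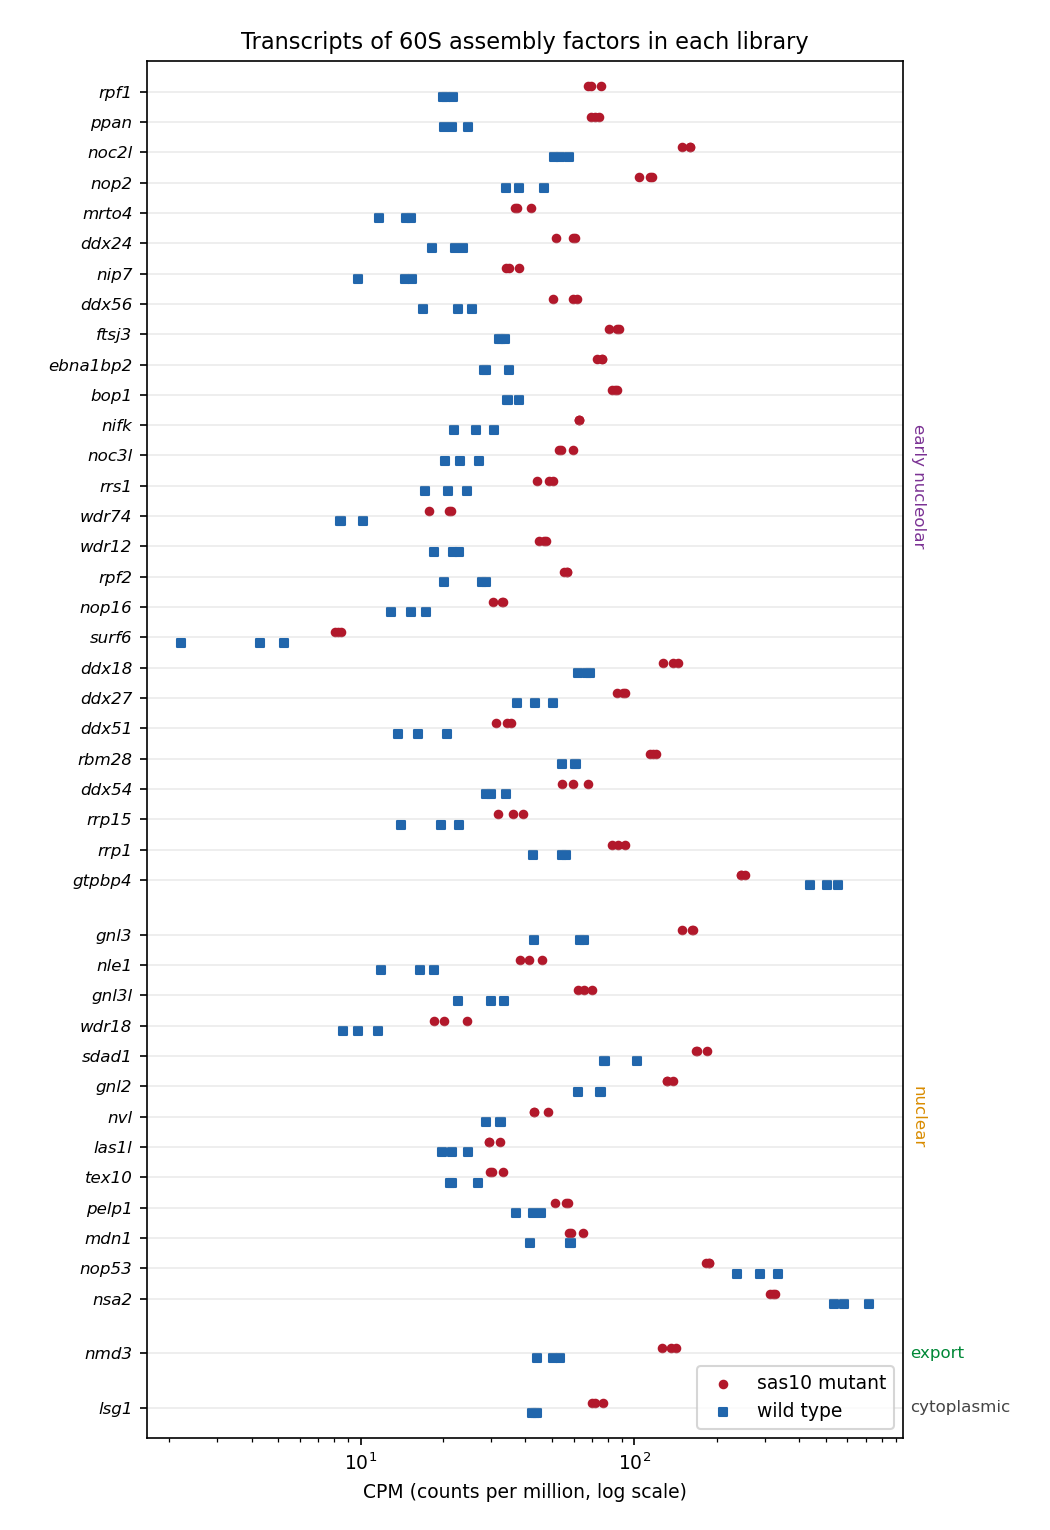
CPM (log axis) of each of the 42 factors in each library, grouped by step, with sas10 mutant libraries as circles above the squares of wild type. The 3 mutant libraries lie at higher CPM than the 3 wild type libraries for 38 factors and at lower CPM for gtpbp4, nsa2 and nop53, and they overlap for mdn1.

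The 3 factors that fell were gtpbp4, nsa2 and nop53. The GTPase encoded by gtpbp4 (yeast Nog1) is placed on the particle in the nucleolus and removed only in the cytoplasm. Its message (chromosome 2, 42361373 to 42375275) had 245.4, 254.0 and 244.1 CPM in sas10 mutants, against 554.9, 504.4 and 436.0 CPM in wild type (log2 fold change -1.01 ± 0.13, edgeR adjusted p = 3.6e-05). All mutant values were within 10 CPM of each other, and the wild type values were spread over more than 100 CPM.

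The protein Nsa2 is a neighbour of Nog1 on the yeast particle. The nsa2 message (chromosome 21, 3789839 to 3796461) had 313.2, 325.0 and 320.2 CPM in sas10 mutants, against 716.9, 584.5 and 536.1 CPM in wild type (log2 fold change -0.94 ± 0.14, edgeR adjusted p = 0.000106). In yeast, Nop53 recruits the RNA exosome to the ITS2 remnant. The nop53 message (chromosome 15, 6652396 to 6666303) had 187.5, 187.0 and 182.2 CPM in sas10 mutants, against 335.1, 288.2 and 237.8 CPM in wild type (log2 fold change -0.63 ± 0.14, edgeR adjusted p = 0.00168). For all 3 genes wt11 was the highest library, wt13 the lowest wild type library, and no mutant library reached it. Among all genes tested, 34.1% had all mutant libraries below all wild type libraries.

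These 3 genes were also the most abundant of the 42 in wild type when counts were set per kilobase of summed exon length. Their levels were 274.9 in sas10 mutants and 527.1 in wild type for nsa2, 105.3 and 211.7 for gtpbp4, and 116.3 and 180.0 for nop53, all in CPM per kilobase with sas10 mutants first. The next in wild type was sdad1, with 71.4 CPM per kilobase in sas10 mutants and 35.4 in wild type. The same 3 genes were the highest in mutants, where gnl3 came next, with 73.0 CPM per kilobase in sas10 mutants and 26.4 in wild type. The lowest levels were those of surf6 (5.51 in sas10 mutants, 2.60 in wild type) and mdn1 (3.41 and 2.98, likewise in CPM per kilobase). The median was 28.8 CPM per kilobase in sas10 mutants and 12.3 in wild type.

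Across the 42 genes the highest level was 80.6 times the lowest in sas10 mutants and 202 times in wild type. These ratios rest on single genes. The highest was nsa2, which fell, and the lowest was mdn1 in sas10 mutants and surf6 in wild type. Without the 3 genes that fell, levels ran from 3.41 (mdn1) to 73.0 (gnl3) CPM per kilobase in sas10 mutants. In wild type they ran from 2.60 (surf6) to 35.4 (sdad1) CPM per kilobase. Fewer than 10 CPM per kilobase were found for 3 factors in sas10 mutants and for 16 in wild type. Among the factors the ranks of level in the 2 genotypes went together (Spearman 0.92, n = 42 genes that share libraries). The ranks of wild type level and fold change were only weakly related (Spearman -0.20, the same genes). That value does not show that the 3 genes that fell were the highest in wild type. Wild type level also enters the fold change, so these 2 measures are not independent.

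**Figure D3:**
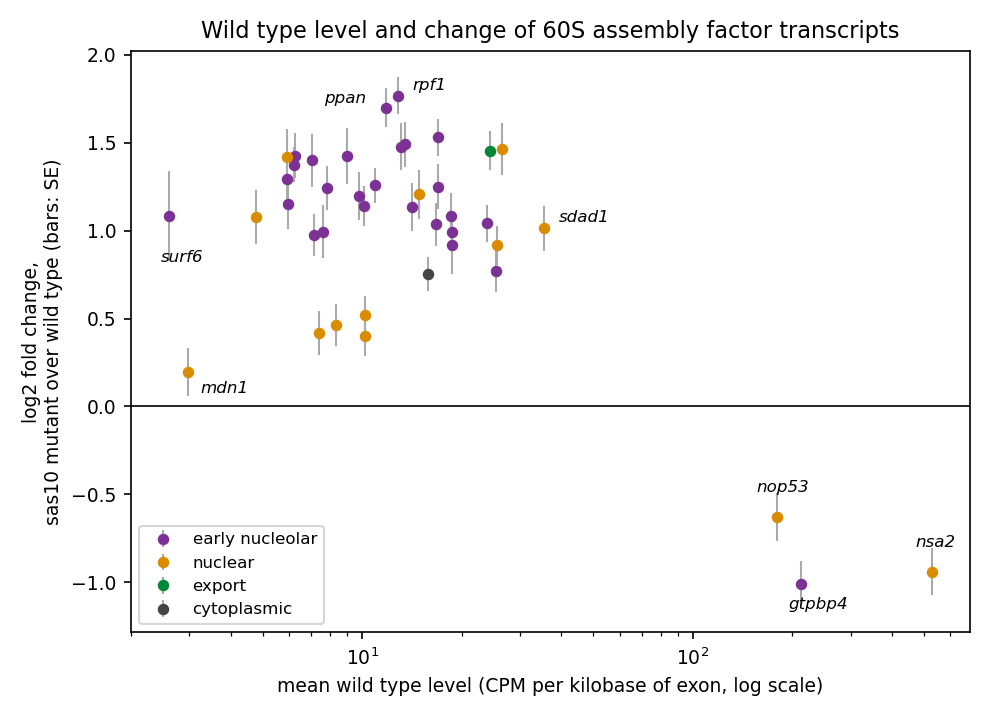
Log2 fold change, mutant over wild type, with bars of 1 SE, against the mean wild type level in CPM per kilobase of exon (log axis), coloured by step. The 3 genes at the right, over 100 CPM per kilobase, lie below 0, and the other 39 lie above it at levels from 2.60 to 35.4.

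Because the fallen genes were abundant, the summed messages of the 42 factors rose less than the median factor. The sum was 3585, 3529 and 3411 CPM in sas10 mutants, against 2940, 2701 and 2361 CPM in wild type. The 3 genes that fell summed to 746.1, 766.0 and 746.4 CPM in sas10 mutants, against 1607, 1377 and 1210 CPM in wild type. The 38 that rose summed to 2695 ± 90.7 CPM in sas10 mutants and 1216 ± 108 CPM in wild type (SD, n = 3 each), a ratio of 2.22, while the ratio for all 42 was 1.32.

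Nuclear factors were a more mixed group. Of 13, 10 rose, 2 fell (nsa2 and nop53) and mdn1 was not called, with a median log2 fold change of 0.52 and 5 genes up by at least 2-fold. Over all genes tested the shares were 30.5% higher, 31.8% lower and 13.2% higher by at least 2-fold. The nuclear factor with the largest increase was gnl3 (chromosome 11, 3959495 to 3971035), encoding nucleostemin, a nucleolar GTPase of proliferating cells. It had 163.5, 149.6 and 161.7 CPM in sas10 mutants, against 63.3, 65.6 and 43.2 CPM in wild type (log2 fold change 1.47 ± 0.15, edgeR adjusted p = 6.95e-06). Its exons share 6.45% of their bases with pbrm1 on the opposite strand. The related GTPase gene gnl3l had 70.3, 65.6 and 62.5 CPM in sas10 mutants, against 33.5, 29.8 and 22.7 CPM in wild type (log2 fold change 1.21 ± 0.14, edgeR adjusted p = 1.83e-05). A further GTPase gene, gnl2 (yeast Nog2), rose by a log2 fold change of 0.92. All mutant libraries lay above all wild type libraries for these 3 GTPase genes, as they did for 33.5% of all genes tested.

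Mdn1 is a very large dynein-like AAA ATPase, and the protein Nle1 (yeast Rsa4) is a handle on which it pulls. The nle1 message had 41.1, 46.1 and 38.2 CPM in sas10 mutants, against 16.5, 18.5 and 11.8 CPM in wild type (log2 fold change 1.42 ± 0.16, edgeR adjusted p = 1.44e-05). Of its exon bases, 14.5% also belong to ltn1 on the opposite strand, which rose by a log2 fold change of 0.72. The mdn1 message (chromosome 20, 23877299 to 23946296) had 58.8, 57.6 and 65.1 CPM in sas10 mutants, against 41.7, 58.2 and 58.6 CPM in wild type (log2 fold change 0.20 ± 0.14, edgeR adjusted p = 0.231). The low wild type library was wt11, and the other wild type values lay within the mutant range. With each library left out in turn the mdn1 log2 fold change ran from 0.06 to 0.29.

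The rixosome joins Pelp1, Tex10 and Wdr18, and it works with Las1l, the endonuclease that cuts within ITS2. All 4 genes rose, as did 30.5% of all genes tested, but only wdr18 by at least 2-fold. It had 24.5, 20.2 and 18.6 CPM in sas10 mutants, against 11.6, 9.75 and 8.65 CPM in wild type (log2 fold change 1.08 ± 0.16, edgeR adjusted p = 9.77e-05). The others were among the smallest increases of the 42, with log2 fold changes of 0.46 for las1l (edgeR adjusted p = 0.00538), 0.42 for tex10 (0.0127) and 0.40 for pelp1 (0.00885). The tex10 call was lost without wild type library wt12 (log2 fold change 0.36, edgeR adjusted p = 0.0597). Under upper-quartile scaling the calls of pelp1 (log2 fold change 0.27, edgeR adjusted p = 0.0539) and tex10 (0.29, 0.0717) were lost. The AAA ATPase gene nvl (yeast Rix7) rose by a log2 fold change of 0.52 and sdad1, a nuclear factor, by 1.01.

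**Figure D4:**
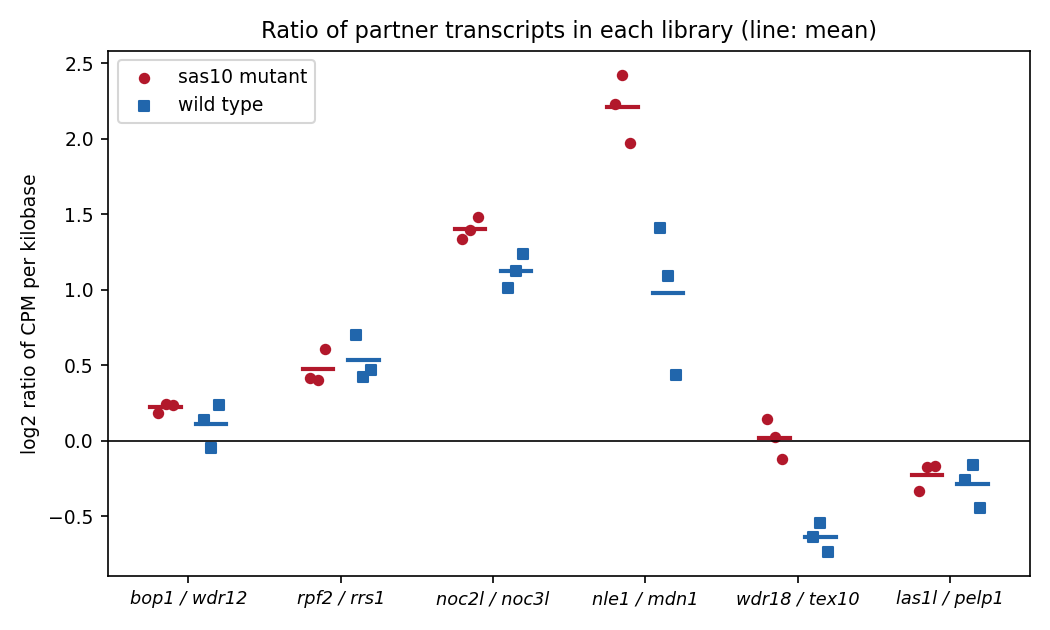
Log2 ratio of CPM per kilobase of 6 partner pairs in each library, with the mean as a line, sas10 mutants left of wild type. The nle1 to mdn1 ratio lies between 1.98 and 2.43 in mutants, above 0.44 to 1.41 in wild type, and the bop1 to wdr12, rpf2 to rrs1 and las1l to pelp1 ratios overlap between the genotypes.

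Whether partners moved together was compared as the log2 ratio of their CPM per kilobase within each library, over 10 pairs. The nle1 to mdn1 log2 ratio was 2.23, 2.43 and 1.98 in sas10 mutants, against 1.41, 1.09 and 0.44 in wild type. The wdr18 to tex10 log2 ratio was 0.14, 0.02 and -0.12 in sas10 mutants, against -0.64, -0.55 and -0.74 in wild type. Genotypes did not overlap in these pairs or in noc2l to noc3l, las1l to wdr18 and pelp1 to wdr18, 5 of 10 in all. Of all single genes tested, 33.5% lay above and 34.1% below in every mutant library. How often the ratios of other gene pairs separate was not computed, so 5 of 10 has no background share. The pairs that hold wdr18 share that gene and are not independent. The mean log2 ratio shifted by 1.23 ± 0.32 for nle1 to mdn1, 0.66 ± 0.09 for wdr18 to tex10, 0.28 ± 0.08 for noc2l to noc3l, -0.61 for las1l to wdr18 and -0.68 for pelp1 to wdr18 (SE where given). Each had an exact two-sided permutation p of 0.1, the smallest that 3 against 3 libraries can give, and 0.2 after adjustment over the 10 pairs.

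In the other 5 pairs the genotypes overlapped. The log2 ratio of bop1 to wdr12 shifted by 0.11 (exact permutation p = 0.2) and that of rpf2 to rrs1 by -0.06 (exact permutation p = 0.5). Among las1l, pelp1 and tex10 the log2 ratios shifted by -0.02 to 0.06. The ratios between these 3 rixosome-linked genes thus overlapped between genotypes, while each of their ratios to wdr18 did not.

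Export and the cytoplasm have 1 factor each in the list. The export adaptor gene nmd3 (chromosome 15, 1653779 to 1672461) had 142.1, 136.4 and 126.2 CPM in sas10 mutants, against 53.3, 50.2 and 44.2 CPM in wild type (log2 fold change 1.45 ± 0.11, edgeR adjusted p = 6.57e-07). The gene of the cytoplasmic GTPase that releases Nmd3, lsg1 (chromosome 11, 34219991 to 34232906), had 71.7, 76.6 and 70.2 CPM in sas10 mutants, against 43.4, 44.0 and 42.3 CPM in wild type (log2 fold change 0.75 ± 0.10, edgeR adjusted p = 4.54e-05). Both rose, nmd3 by the larger fold.

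A second list held 36 further large subunit assembly and export genes, taken from knowledge of the pathway. This list was chosen with earlier results of these data known, so it is no independent check of the 42 factors. Of its 35 matched genes, 28 rose, 1 fell and 6 were not called, with a median log2 fold change of 1.15. Among all genes tested, 30.5% were called higher and 31.8% lower. By step, 17 of 19 early nucleolar, 2 of 5 nuclear, 4 of 4 export and 5 of 7 cytoplasmic genes rose. The largest increase was that of dnajc21, whose yeast counterpart Jjj1 is a cytoplasmic co-chaperone of 60S recycling. It had 53.9, 50.5 and 50.6 CPM in sas10 mutants, against 8.55, 8.39 and 7.16 CPM in wild type (log2 fold change 2.69 ± 0.12, edgeR adjusted p = 1.01e-08), a change larger than that of any of the 42 factors.

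Next in that list were npm1a, encoding nucleophosmin, and grwd1, whose yeast counterpart Rrb1 chaperones a ribosomal protein. The npm1a message had 479.5, 496.1 and 479.8 CPM in sas10 mutants, against 147.2, 150.3 and 124.7 CPM in wild type (log2 fold change 1.79, edgeR adjusted p = 2.86e-07). The increase of grwd1 was 1.75 in log2. The PeBoW member pes, the partner of bop1 and wdr12, had 147.4, 138.1 and 125.3 CPM in sas10 mutants, against 60.3, 52.4 and 52.2 CPM in wild type (log2 fold change 1.32, edgeR adjusted p = 1.52e-06). The gene of the anti-association factor eif6 had 151.2, 152.4 and 151.1 CPM in sas10 mutants, against 64.3, 61.4 and 46.1 CPM in wild type (log2 fold change 1.404, edgeR adjusted p = 3.1e-06). All 3 members of the PeBoW complex therefore rose, by log2 fold changes of 1.14 to 1.32, beside 30.5% of all genes tested.

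Both exportin genes rose, xpo1a by a log2 fold change of 1.43 and xpo1b by 1.58, close to the 1.45 of nmd3. The single gene of the second list that fell was rsl24d1 (yeast Rlp24), whose product binds beside Nog1. It had 195.5, 183.0 and 179.2 CPM in sas10 mutants, against 403.8, 331.7 and 265.0 CPM in wild type (log2 fold change -0.84 ± 0.15, edgeR adjusted p = 0.00048). Its level per kilobase, 183.7 CPM in sas10 mutants and 329.5 CPM in wild type, was in the range of nsa2, gtpbp4 and nop53. The genes not called were rsl1d1 (log2 fold change 0.07), senp3a (-0.04), senp3b (0.31), bccip (0.30), dusp12 (0.45) and aamp (0.21).

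The precursor RNA itself was read in a separate deposited table, as TPM over 6 regions of the 45S transcript in each library. The TPM of the 6 regions sum to 1000000 in each library. Each value is thus a share within the precursor and not an amount, and a larger share of any region leaves less for the rest. These are reads left in polyA libraries, from 23911 in wild type replicate 3 to 653430 in wild type replicate 1. The table's replicate numbers could not be tied to the gene count columns. The spacer removed by the large subunit factors, ITS2, had 53860, 92930 and 93950 TPM in sas10 mutants, against 3386, 16146 and 34080 TPM in wild type. Behind these values stand 208, 103 and 99 reads in sas10 mutants and 68, 25 and 21 reads in wild type. All mutants were above all wild types, with a difference of 2.66 in mean log2(TPM + 1) (exact two-sided permutation p = 0.1, the smallest possible, adjusted p = 0.2 over 6 regions). Without wild type replicate 1 the difference was 1.73.

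The share of the mature 28S region did not separate the genotypes, with 735210, 456960 and 383290 TPM in sas10 mutants, against 446030, 621950 and 553900 TPM in wild type (exact permutation p = 0.9). Set against 28S, ITS2 gave 1.37, 3.80 and 4.36 reads per 1000 28S reads in sas10 mutants, against 0.157, 0.489 and 1.13 in wild type. The 28S reads numbered 152173, 27107 and 22731 in sas10 mutants and 433955, 51157 and 18619 in wild type. Within each genotype the ratio fell as the 28S reads left in the library rose. The part of that carry-over in the difference between genotypes was not tested. The spacer ahead of 18S, 5'ETS, was higher in all mutants (difference in mean log2(TPM + 1) 3.70, exact permutation p = 0.1). The genotypes overlapped in ITS1, the spacer after 18S, which rests on 39, 47 and 42 reads in sas10 mutants and 35, 3 and 7 reads in wild type (exact permutation p = 0.2). The short rRNA region between the spacers had 6, 0 and 3 reads in sas10 mutants and is listed at 0 in wild type (exact permutation p = 0.4). As TPM, the 18S region was lower in all mutants (difference in mean log2(TPM + 1) -1.23, exact permutation p = 0.1). Set against 28S it overlapped, with 66.2, 188.2 and 244.2 reads per 1000 28S reads in sas10 mutants, against 504.5, 232.1 and 280.0 in wild type.

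**Figure D5:**
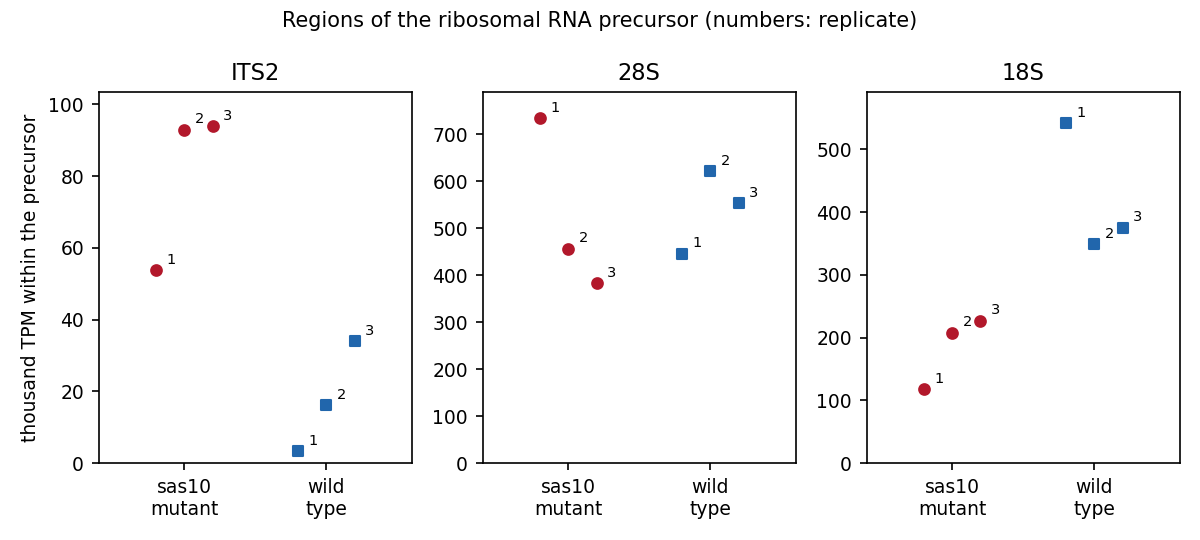
Share of ITS2, 28S and 18S within the precursor in units of 1000 TPM (linear axes that start at 0), each library as a point with its replicate number, sas10 mutants left of wild type. ITS2 lies at 53860 to 93950 TPM in mutants and 3386 to 34080 TPM in wild type, 28S overlaps, and 18S has fewer TPM in all mutants, although per 1000 28S reads it overlaps.

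The authors' deposited comparison holds 8574 genes, none with an absolute log2 fold change under 0.585. Of the 42 factors, 37 were present in the authors' deposited table, 34 higher and 3 lower, in each case with the sign found here. All 8553 genes present in both comparisons shared their sign, so the shared sign of these 37 is no separate support. Its log2 fold change was 1.70 for rpf1 and -1.01 for nsa2 in the authors' deposited table. The 5 not listed there were mdn1, las1l, pelp1, tex10 and nvl, the factors with the smallest changes here.

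Markers of several tissues were called changed, beside a share of 62.2% among all genes tested (30.5% higher and 31.8% lower). Those of proliferating cells, in which ribosome assembly genes are generally high, gave 2 higher and 7 lower of 14 tested, with sums of 543.2 to 575.8 CPM in sas10 mutants and 583.2 to 641.8 CPM in wild type. Exocrine pancreas markers, from cells with much ribosome synthesis, fell for 7 of 7 tested, with sums of 182.8 to 193.5 CPM in sas10 mutants and 12110 to 19390 CPM in wild type. Hepatocyte markers gave 3 higher and 6 lower of 10 tested (4089 to 4588 CPM in sas10 mutants, 3944 to 5541 CPM in wild type). Their median log2 fold change was -2.08. The 3 that rose, apoa2 (mean 2597 CPM in sas10 mutants, 1914 CPM in wild type), fgb and fga, carried most of the mutant sum. Of the 6 that fell, fabp10a averaged 8.09 CPM in sas10 mutants and 365.3 CPM in wild type. Intestine markers gave 1 higher and 6 lower of 7 tested (2022 to 3035 CPM in sas10 mutants, 4996 to 6146 CPM in wild type), with a median of -2.82. The 1 that rose, apoa1a, averaged 1722 CPM in sas10 mutants. The part of these tissues in the changes of the 60S factors was not tested.

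Muscle, neuron and lens markers were read in every library of these whole embryos, and no matched marker of any list was at 0 in a genotype. Skeletal muscle markers gave 1 higher and 1 lower of 3 tested (29670 to 31770 CPM in sas10 mutants, 21020 to 30260 CPM in wild type). Neuron markers gave 0 higher and 1 lower of 3 tested (171.1 to 218.7 CPM in sas10 mutants, 234.9 to 339.9 CPM in wild type). Lens and eye markers gave 1 higher and 4 lower of 6 identifiers tested (343.2 to 449.0 CPM in sas10 mutants, 1403 to 2229 CPM in wild type). These 6 stand for 3 symbols, crygm2d1, gnat2 and rho, and rho has more than 1 identifier. The 1 called higher is a rho identifier with a mean of 1.996 CPM in sas10 mutants and 1.075 CPM in wild type.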

How the data were processed

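The gene table holds raw counts that the authors made, per the file headers, with featureCounts 2.0.1, which counted read pairs over the exons of each gene of the Ensembl GRCz11 annotation. The command has no strand option. Per the submitters' processing notes, fastp 0.20.0, HISAT2 2.2.1, Salmon 0.12 and DESeq2 1.40.2 are also named. The tissue is given as embryo and the RNA as polyA RNA, per the labels. The authors' deposited comparison table gives log2 fold changes and p-values with no values per library, and was only set beside the results. The authors' deposited precursor table gives counts of reads and TPM by region.

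Symbols came from a name table (29201 of 32520 identifiers). The members and all lists were chosen with earlier results of these data known. The second list had 36 symbols, of which 1 was unmatched and 4 were matched by another symbol. Marker lists were proliferating cells, exocrine pancreas, hepatocyte, intestine, skeletal muscle, neuron, and lens and eye. Some marker symbols were unmatched: 6 of 12 matched for exocrine pancreas, 7 of 9 for intestine, 3 of 6 for muscle, 3 of 6 for neuron and 3 of 5 for lens and eye. The symbols mcm6, rrm2, cpa1 and rho each matched more than 1 identifier, and identifiers were counted.

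The fit used edgeR 4.0.16 (R 4.3.3): TMM scaling, default expression filter (21708 genes kept, 10812 left out), robust dispersions, the quasi-likelihood test, and Benjamini-Hochberg adjustment over all genes tested. The coefficient of biological variation was 0.146. SEs were derived from the F statistic. The scripts were tested on simulated counts. Exact two-sided permutation tests were used for precursor regions and partner ratios, the regions on log2(TPM + 1). The added 1 matters for the short rRNA region, which is listed at 0 TPM in wild type and in mutant replicate 2. Its difference in mean log2(TPM + 1), 9.604, depends on that choice. Count columns show the genotype but not the replicate number, so libraries are named by their headings.

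The genes given in full were the 4 called with the largest increase per step, all that fell or were not called, and the export and cytoplasmic factors. The named complexes and DEAD-box genes are given more briefly, and of the second list up to 3 called genes with the largest fold in each direction (1 was called lower), with pes and eif6. Further names were chosen after their values were seen. The alternatives changed the scaling (RLE, upper-quartile), the filter (none beyond 1 count, or a stricter one) and the tool (DESeq2 1.42.0, limma voom), or used a fold threshold of 1.5, each library left out, a replicate block or other pseudocounts. Leaving out members that share exon bases, and single libraries in the partner ratios, was added after seeing the data. Outcomes for the partner ratios with single libraries left out, and for other pseudocounts, are not given here.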

Additional observations from a re-analysis of the deposited data

How the results depend on the processing

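Of 546 values of the 42 factors over 13 alternative settings, 543 kept their direction and their side of the threshold, 3 lost the call and 0 changed direction, and 40 factors held in every setting. Those lost are pelp1 and tex10 under upper-quartile scaling and tex10 without wt12. That scaling moved the median log2 fold change of all genes to -0.17, against -0.04, and of the factors to 0.98, against 1.11. Counts of factors called higher were 36 under upper-quartile scaling, 34 with at least a 1.5-fold change, 30 without the 8 factors that share exon bases with another gene, and 37 or 38 with 1 library left out, and 3 were lower throughout. The second list had 25 to 32 called higher and 1 lower, with the fewest, 25, at the fold threshold and the most, 32, without wt11.

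Direction changed for uncalled values only. The log2 fold change of rsl1d1 was -0.060 under upper-quartile scaling and ran from -0.045 to 0.20 with 1 library left out, that of senp3a from -0.21 to 0.12, and the 28S difference in mean log2(TPM + 1) from -0.36 to 0.11. The cause was not tested.

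With a replicate block on the last digit of the column headings, an assumed number, 38 factors were higher and 3 lower, and of the second list 31 and 1. These digits share only a number: deviations of same-digit libraries correlated at 0.12, 0.05 and 0.24, and s2 correlated best with wt11, at 0.07. Depth limits the precursor spacers, where ITS2 rests on 21 to 208 reads and ITS1 on 3 to 47, and surf6, with 43 counts in its lowest library.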

Other observations

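Of the 42 factors, 6 lie on chromosome 11, which also holds utp3: gnl3l at 0.868 Mb, lsg1 at 7.84 Mb, rpf1 at 10.3 Mb, wdr18 at 12.6 Mb, mrto4 at 15.5 Mb and gnl3 at 22.4 Mb from it. All 6 rose, with a median log2 fold change of 1.34, where 30.5% of all genes tested were called higher. The share among all genes of chromosome 11 was not computed. Of the 36 factors on other chromosomes, 32 rose, 3 fell and 1 was not called, with a median of 1.08. The effect of alleles linked to utp3 was not tested.

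Library spread differed between the genotypes. The median coefficient of variation of CPM over the 42 factors was 5.69% in sas10 mutants and 14% in wild type (n = 3 libraries each). Among wild type libraries wt13 was the lowest for 33 factors and wt11 the highest for 22, and among mutants s3 was the lowest for 29. How often these libraries rank so among all genes was not computed. Across genes in general, wild type pairs also differed more than mutant pairs. Their chi-square per degree of freedom was 10.6 to 32.2, against 7.67 to 9.71, so the wider wild type spread was not particular to the factors.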
